A study of Mus musculus with 4 samples.

Results

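The proteasome genes described here are the 45 genes of the deposited mouse table whose symbols begin with Psma, Psmb, Psmc, Psmd, Psme, Psmf or Psmg followed by a number and which have an exon length above 0, without the immunoproteasome genes Psmb8, Psmb9 and Psmb10. They were taken from 32555 genes with an exon length, by name and not by their values. By role they divide into 8 genes of the alpha ring and 8 of the beta ring of the core particle (20S), 9 of the base and 8 of the lid of the regulatory cap (19S), 7 assembly chaperones, and 5 other caps and regulators.

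RNA was sequenced from 4 libraries in 2 groups. The 6F group held 2 libraries of cultured fat-derived regenerative cells, the ADRCs of the labels, at passage 2; ADRCs are mesenchymal cells that grow out of adipose tissue. They had received 6 factors by lentivirus and were sorted for GFP 3 weeks later. Their strain label was C57BL/6-Tg (Myh6-EGFP) MG3Tm; MG3, a reporter line whose GFP is driven by the Myh6 promoter, and Myh6 encodes the alpha myosin heavy chain of heart muscle, so the sort kept cells in which that promoter was active. The ADRC group held 2 libraries of passage 2 ADRCs from inguinal and axillary fat of C57BL/6J mice aged 8 weeks; their titles name a reporter-positive control, a wording that their strain label does not bear out. Transduction, time in culture, sorting and, by the labels, strain differ together between the groups and cannot be told apart. Nothing in the labels says whether both libraries of a group stem from independent cultures. The p-values therefore measure the spread among these 4 libraries, part of which may be technical.

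The proteasome is the barrel-shaped protease that degrades proteins tagged with ubiquitin. Alpha subunits form its outer rings and gate the barrel, beta subunits form its inner rings and hold the proteolytic sites, and the regulatory cap binds tagged proteins, removes the tag and unfolds them with a ring of ATPases. In muscle it takes part in the turnover of sarcomere proteins, and in mammalian cells the transcription factor Nfe2l1 raises its subunit genes together when proteasome activity is short.

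Exon reads came to 7593772 and 6986223 in 6F libraries a and b, against 2273897 and 2662128 in ADRC libraries a and b. Myh6 had 12810 and 6489 exon reads in the 6F libraries and 9 and 11 in the ADRC libraries. The 6 cardiomyocyte markers summed to 2272 and 1492 CPM in the 6F libraries against 11.1 and 12.1 CPM in the ADRC libraries (CPM, counts per fixed number of reads, on library sizes scaled by TMM). Most of the 6F sum was Myh6 and Tnnt2. Ryr2 had 60 and 97 reads in the 6F libraries and 0 and 1 in the ADRC libraries. Myl7 had 60 and 32 reads against 1 and 1. Actn2 was barely read, with 9 and 9 reads in the 6F libraries and 5 and 6 in the shallower ADRC libraries. That is 1.09 and 1.21 CPM against 2.41 and 2.43 CPM. No test is given for Ryr2, Myl7 or Actn2, which had enough reads to be tested in only 1 group. Nkx2-5 had 0 reads in all 4 libraries. Of the smooth muscle markers 4 of 5 were higher in 6F cells, with Acta2 not called. Their sum was 14510 and 13358 CPM in the 6F libraries against 4719 and 4826 CPM in the ADRC libraries. All 7 mesenchymal stromal markers had reads in every library. Pdgfrb, Thy1, Cd44 and Eng were lower in 6F cells, Ly6a was higher and Pdgfra was not called. Nt5e had 95 and 81 reads in the 6F libraries and only 6 and 1 in the ADRC libraries, and no test is given for it. The 5 proliferation markers were all lower in 6F cells, at a summed 29.7 and 41.3 CPM against 831 and 907 CPM in ADRCs. Summed macrophage markers stood at 10.3 and 106 CPM in 6F libraries a and b and at 239 and 253 CPM in ADRCs, with Ptprc and Adgre1 at 0 reads in 6F library a. The part of these other differences in the results below was not tested, and in such bulk RNA fewer cells of a type and less RNA per cell cannot be told apart.

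Of the 45 proteasome genes 43 had enough reads to be tested, and in 6F cells 17 of these were lower, 1 was higher and 25 were not called (edgeR's quasi-likelihood test, Benjamini-Hochberg adjusted p under 0.05 over all 12573 genes tested). Over all tested genes 22.8% were called lower and 24.2% higher, against 39.5% of the proteasome genes called lower. Their median log2 fold change of 6F over ADRC was -0.45, against 0.07 over the whole table. It was -0.29 without 6F library b and -0.21 with libraries scaled by their size alone, which moves the whole table's median to 0.30. The estimate was below 0 for 36 of the 43 and above 0 for 7. Yet the libraries of the 2 groups did not overlap in 28 of the 43, a share of 65.1%, against 77.8% of all tested genes. Of the 17 lower genes 5 reached 2-fold, as did the 1 higher gene, where 14.4% of all tested genes fell and 18.6% rose at least 2-fold.

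**Figure D1:**
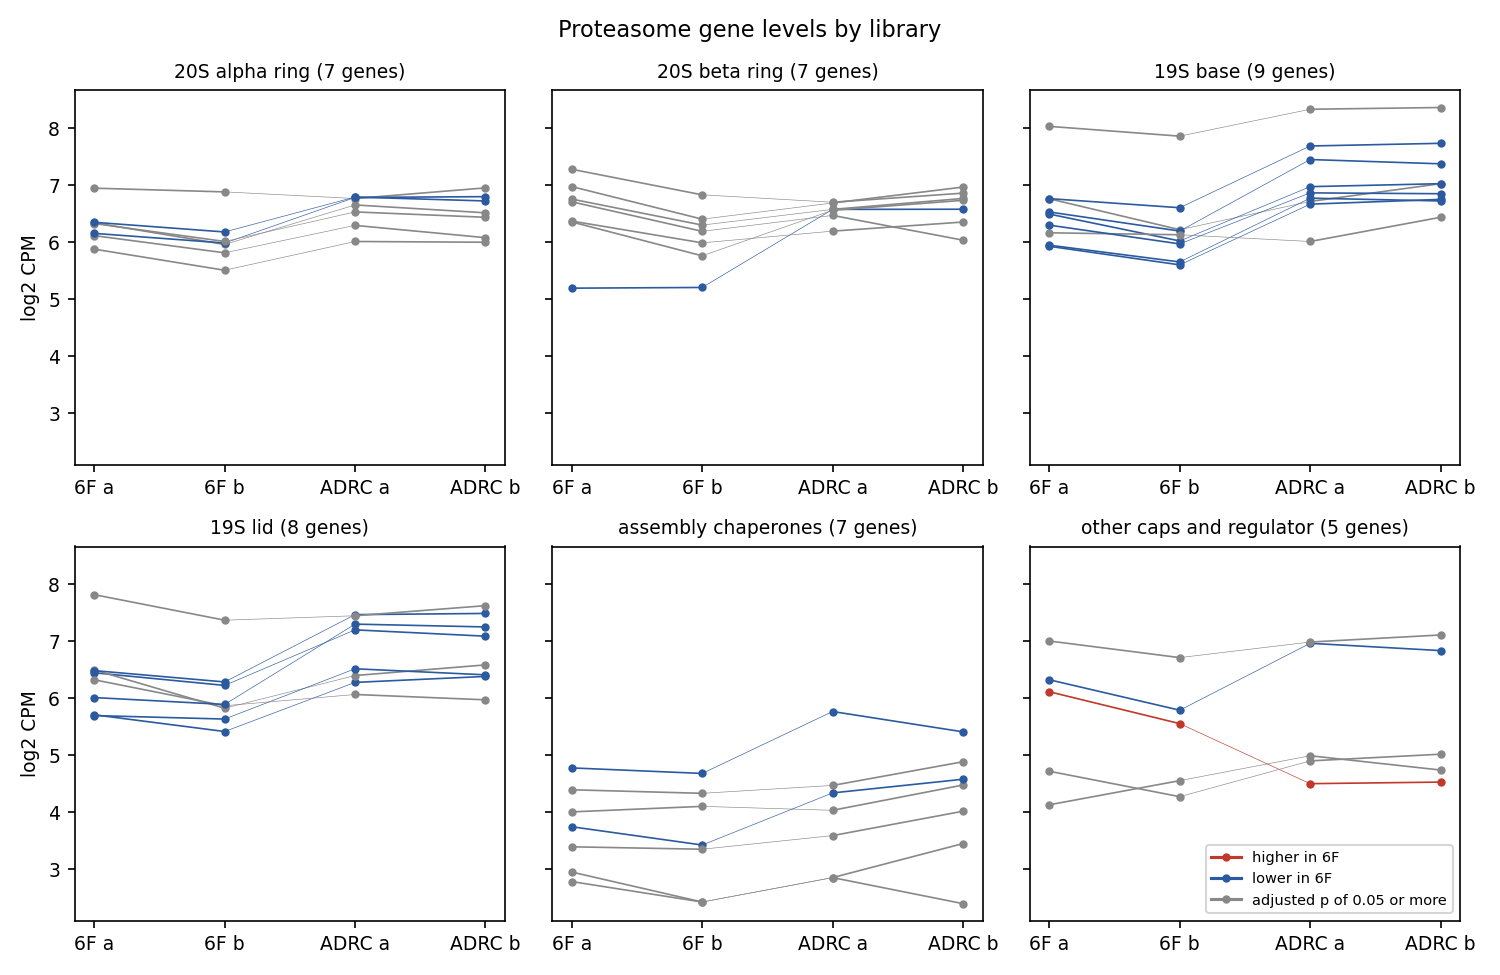
Log2 CPM (vertical axes) of the 43 tested proteasome genes in 6F libraries a and b and ADRC libraries a and b (horizontal axes), 1 panel for each role and 1 line for each gene; lines only join the values of a gene. Most 19S lines are lower in both 6F libraries, the 20S beta lines overlap between groups except for Psmb2 at 36.6 and 36.9 CPM in 6F against 95.3 and 95.5 CPM in ADRC libraries and Psmb3, and 40 of the 43 genes are higher in 6F library a than in b.

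Set out by particle, most falls were among genes of the cap. Of 17 tested 19S genes 11 fell in 6F cells, with a median log2 fold change of -0.76, and of 14 tested 20S genes 3 fell, with a median of -0.26. As shares these were 64.7% and 21.4%, against 22.8% of all tested genes, so the 20S share was near that of the whole table. These counts depended on 6F library a: without it 14 of 17 19S genes and 11 of 14 20S genes were lower, with medians of -0.91 and -0.44. Without 6F library b 12 of 17 and 4 of 14 were lower, without ADRC library a 3 and 1, and without ADRC library b 2 and 1. For each of these fits the shares over all genes are given further below. The ratio of summed 19S to summed 20S levels within a library does not depend on how libraries are scaled. It was 0.745 and 0.790 in the 6F libraries against 0.980 and 1.02 in the ADRC libraries. Levels here are in TPM, reads divided by exon length and scaled to a fixed total per library. Both 6F libraries lay below both ADRC libraries, with means of 0.768 ± 0.0319 in 6F and 1.00 ± 0.0301 in ADRC cells (SD, n = 2 each; exact two-sided permutation p = 0.333, the smallest that 2 libraries against 2 can give). Within the cap the ratio of lid to base, at 0.682 and 0.660 in the 6F libraries and 0.669 and 0.637 in the ADRC libraries, overlapped between the groups (exact two-sided permutation p = 0.667).

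The base of the 19S cap had 6 of 9 genes lower in 6F cells and 0 higher, with a median log2 fold change of -0.72. Psmc3, a subunit of the ATPase ring that threads proteins into the core, had 92.3 and 73.2 CPM in the 6F libraries, against 175 and 166 CPM in the ADRC libraries, a log2 fold change of -1.04 (SE 0.17, adjusted p = 0.00437). Both 6F values were well below both ADRC values. Psmd1, the large scaffold of the base, had 109 and 97.2 CPM in the 6F libraries, against 206 and 213 CPM in the ADRC libraries, a log2 fold change of -1.02 (SE 0.15, adjusted p = 0.00269). Here too the groups were far apart and the libraries of each group close together. The ATPases Psmc5, Psmc4 and Psmc2 fell by 0.94, 0.93 and 0.72 on the log2 scale, with adjusted p of 0.00602, 0.00696 and 0.0249. Psmd4, a receptor for ubiquitin chains, averaged 70.7 ± 11.4 CPM in 6F and 116 ± 0.836 CPM in ADRC cells (SD, n = 2 each), a log2 fold change of -0.71 with adjusted p = 0.0167.

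The remaining base genes were not called. Psmd2, the other large scaffold and the most read proteasome gene by CPM, had 262 and 232 CPM in the 6F libraries and 322 and 329 CPM in the ADRC libraries, with a log2 fold change of -0.40 (SE 0.15, adjusted p = 0.0652). Its groups did not overlap. The ATPase Psmc1 had 108 and 74.4 CPM in the 6F libraries and 105 and 130 CPM in the ADRC libraries, so the groups overlapped. Another ATPase, Psmc6, had 71.7 and 70.0 CPM in the 6F libraries, inside the ADRC values of 64.5 and 86.6 CPM. The estimates for the 6 ATPases, whose products assemble into a single ring in equal number, thus ran between -1.04 for Psmc3 and -0.10 for Psmc6.

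In the 19S lid 5 of 8 genes were lower in 6F cells and 0 were higher, with a median log2 fold change of -0.78. Psmd7, which pairs with the deubiquitinase of the lid (ENSMUSG00000039067; GRCm38 chr8:107580381-107588464, minus strand), had 64.5 and 59.3 CPM in the 6F libraries, against 157 and 152 CPM in the ADRC libraries, a log2 fold change of -1.32 (SE 0.15, adjusted p = 0.00114). The groups were separated by many times the difference within each. Psmd3, a scaffold subunit of the lid, had 89.4 and 77.9 CPM in the 6F libraries, against 177 and 179 CPM in the ADRC libraries, a log2 fold change of -1.09 (SE 0.15, adjusted p = 0.00246). Psmd14, the deubiquitinase itself, had 51.8 and 49.6 CPM in the 6F libraries and 91.5 and 85.0 CPM in the ADRC libraries, a log2 fold change of -0.80 (SE 0.16, adjusted p = 0.00791). For both genes the 6F libraries were low and the ADRC libraries high, without overlap. Psmd11 and Psmd12, scaffold subunits of the lid, fell by 0.80 and 0.76 on the log2 scale (adjusted p = 0.00838 and 0.0148).

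Not called in the lid were Psmd13, Psmd8 and Psmd6. Psmd8 had 225 and 165 CPM in the 6F libraries and 174 and 197 CPM in the ADRC libraries. Psmd6 had 80.0 and 58.3 CPM in the 6F libraries and 66.9 and 62.7 CPM in the ADRC libraries. Psmd13 had 90.2 and 56.6 CPM in the 6F libraries and 84.2 and 95.9 CPM in the ADRC libraries. In each of the 3 genes the groups overlapped, and 6F library a was above 6F library b.

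The alpha ring had 2 of 7 tested genes lower and 0 higher, with a median log2 fold change of -0.30. The share lower, 28.6%, was near the 22.8% of all tested genes. Psma4 had 71.2 and 63.3 CPM in the 6F libraries, against 110 and 111 CPM in the ADRC libraries, a log2 fold change of -0.72 (SE 0.15, adjusted p = 0.0108). Psma7 had 81.5 and 72.4 CPM in the 6F libraries, against 111 and 106 CPM in the ADRC libraries, a log2 fold change of -0.49 (SE 0.15, adjusted p = 0.0400). In both genes the ADRC libraries were the higher pair, without overlap. The other tested alpha genes, Psma1, Psma2, Psma3, Psma5 and Psma6, were not called, with log2 fold changes between -0.42 for Psma2 and 0.05 for Psma3. The testis alpha gene Psma8 had 1 and 1 reads in the 6F libraries and 0 and 0 in the ADRC libraries and was not tested; a floor of 3 reads over a group corresponds to 0.191 CPM in 6F and 0.660 CPM in ADRC cells.

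In the beta ring Psmb2 alone of 7 tested genes was lower, and 0 were higher. That is 14.3% lower, against 22.8% of all tested genes. Psmb2, a structural beta subunit without a proteolytic site (ENSMUSG00000028837; GRCm38 chr4:126677630-126709714, plus strand), had 36.6 and 36.9 CPM in the 6F libraries, against 95.3 and 95.5 CPM in the ADRC libraries. Its libraries agreed closely within each group and lay far apart between them, and its log2 fold change of -1.38 (SE 0.16, adjusted p = 0.00113) was the largest fall among the 43 tested proteasome genes. Relative to the other beta genes of the same library, Psmb2 stood at 0.0653 and 0.0934 in the 6F libraries and at 0.206 and 0.197 in the ADRC libraries, as ratios of TPM. The 2 groups did not overlap in that ratio (exact two-sided permutation p = 0.333, the smallest possible).

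None of the genes for the 3 proteolytic beta subunits was called with all 4 libraries. Psmb5, the chymotrypsin-like subunit, had 105 and 73.0 CPM in the 6F libraries and 88.6 and 65.5 CPM in the ADRC libraries. Psmb6, the caspase-like subunit, had 82.7 and 63.4 CPM in the 6F libraries and 73.2 and 81.7 CPM in the ADRC libraries, and Psmb7, the trypsin-like one, had 108 and 78.7 CPM in the 6F libraries and 95.3 and 109 CPM in the ADRC libraries. In all 3 the groups overlapped, and the log2 fold changes were 0.21 (SE 0.24), -0.08 (SE 0.19) and -0.13 (SE 0.20). The signs of these estimates depended on which 6F library was left out. Without 6F library b the log2 fold changes were 0.48 for Psmb5, 0.12 for Psmb6 and 0.11 for Psmb7. Without 6F library a they were -0.0560, -0.28 and -0.37. Of the structural beta genes, Psmb4 had the highest estimate, 0.29 (SE 0.20), and Psmb3 had 81.8 and 54.2 CPM in the 6F libraries against 94.4 and 106 CPM in the ADRC libraries, without overlap but with adjusted p = 0.0865. Psmb1 overlapped between groups at 126 and 84.6 CPM in the 6F libraries and 103 and 125 CPM in the ADRC libraries. Psmb11, the thymus beta gene, had 0 reads in both 6F libraries and 1 and 0 in the ADRC libraries and was not tested.

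**Figure D2:**
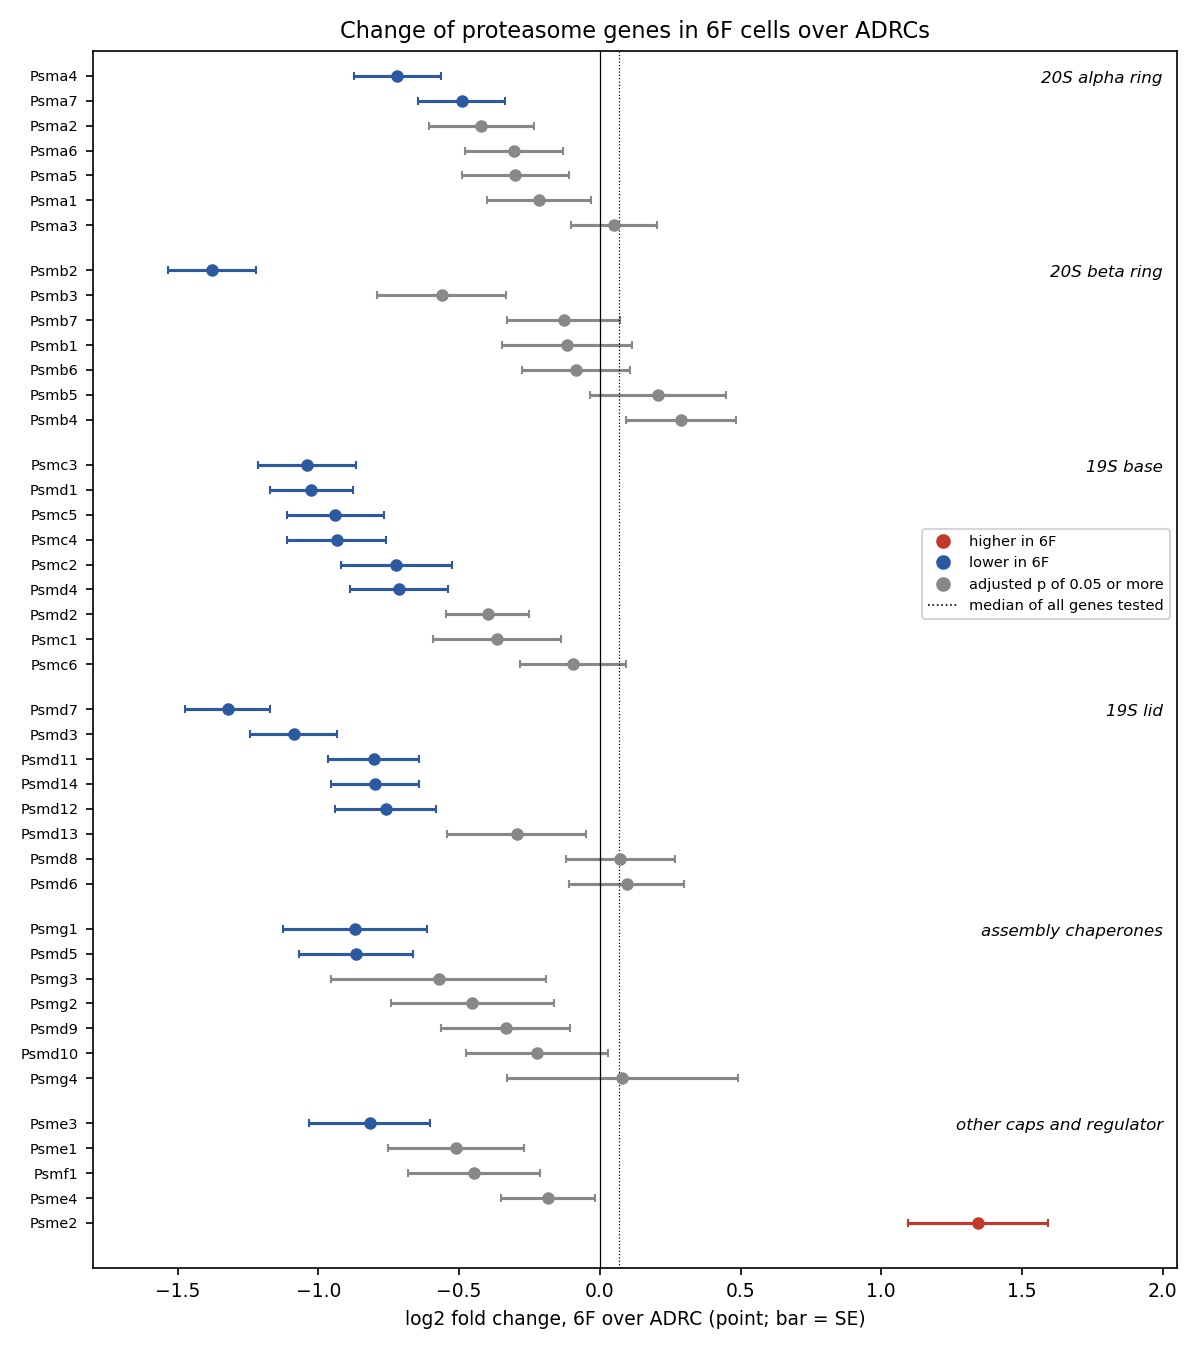
Log2 fold change of 6F over ADRC (horizontal axis; points, with bars for the SE) of the 43 tested proteasome genes, grouped by role and ordered by value; blue and red mark genes lower and higher in 6F cells at an adjusted p under 0.05. The largest fall is Psmb2 at -1.38, the 1 rise is Psme2 at 1.35, and the dotted line is the median of all tested genes, 0.07.

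Levels per exon length differed less between roles than between single genes. In 6F cells the median of the gene means was 116 TPM for the 19S base and 72.2 TPM for the lid, 113 TPM for the alpha ring, 142 TPM for the beta ring and 32.7 TPM for the assembly chaperones. In ADRCs the same medians were 138, 87.8, 133, 226 and 32.1 TPM. In 6F cells Psmb5 and Psmb1 shared the highest level, at 371 ± 93.3 and 369 ± 102 TPM (SD, n = 2 each). In ADRCs Psmb1 had the highest, at 313 ± 38.9 TPM, and Psmb5 had 252 ± 56.3 TPM. Psmd7 ranked 12 among the 45 genes in 6F cells and 3 in ADRCs, and Psmb2 ranked 17 in 6F cells and 7 in ADRCs.

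Of the 7 assembly chaperones, which build the core or the base and leave the finished complex, 2 were lower in 6F cells and 0 were higher. At 28.6% lower they were near the 22.8% of all tested genes. Psmg1, which starts the alpha ring together with Psmg2, had 13.4 and 10.7 CPM in the 6F libraries, against 20.2 and 23.9 CPM in the ADRC libraries, a log2 fold change of -0.87 (SE 0.26, adjusted p = 0.0313). Psmd5, a chaperone of the base, had 27.4 and 25.6 CPM in the 6F libraries, against 54.4 and 42.5 CPM in the ADRC libraries, a log2 fold change of -0.87 (SE 0.20, adjusted p = 0.0145). The 6F libraries were the lower pair for both, without overlap. Psmg2, Psmg3 and Psmg4 and the base chaperones Psmd9 and Psmd10 were not called, with estimates between -0.57 for Psmg3 and 0.08 for Psmg4. Chaperone genes were read at few counts, down to 13 exon reads for Psmg4 in ADRC library b, and its estimate had an SE of 0.41.

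The alternative caps moved apart. Psme2, a subunit of the ring-shaped activator that docks on the core in place of the 19S cap (ENSMUSG00000079197; GRCm38 chr14:55587441-55591113, minus strand), had 69.2 and 46.9 CPM in the 6F libraries, against 22.6 and 23.1 CPM in the ADRC libraries. Both 6F libraries were above both ADRC libraries, and the log2 fold change was 1.35 (SE 0.25, adjusted p = 0.00643). Psme1, the partner subunit of the same ring, went the other way in its estimate, with 17.5 and 23.5 CPM in the 6F libraries and 31.8 and 26.7 CPM in the ADRC libraries, and was not called (log2 fold change -0.51, SE 0.24, adjusted p = 0.127). Within a library Psme2 stood at 4.95 and 2.50 times Psme1 in the 6F libraries and at 0.892 and 1.08 times in the ADRC libraries, by TPM. In that ratio the 6F libraries were the higher pair (exact two-sided permutation p = 0.333, the smallest possible). The gene has a near-identical copy, Psme2b, which is listed with 25 and 10 reads in the 6F libraries and 1 and 1 in the ADRC libraries; how reads that match both were counted is not stated, so the level of Psme2 is uncertain.

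Psme3, which forms the nuclear activator ring, had 80.0 and 55.3 CPM in the 6F libraries, against 125 and 114 CPM in the ADRC libraries, a log2 fold change of -0.82 (SE 0.21, adjusted p = 0.0212). Its groups did not overlap. Psme4, a single-chain cap known from mouse testis and from DNA repair, overlapped between groups at 128 and 105 CPM in the 6F libraries and 127 and 138 CPM in the ADRC libraries. Psmf1, a regulator that binds the core, had 26.3 and 19.3 CPM in the 6F libraries and 29.8 and 32.4 CPM in the ADRC libraries, and was not called.

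**Figure D3:**
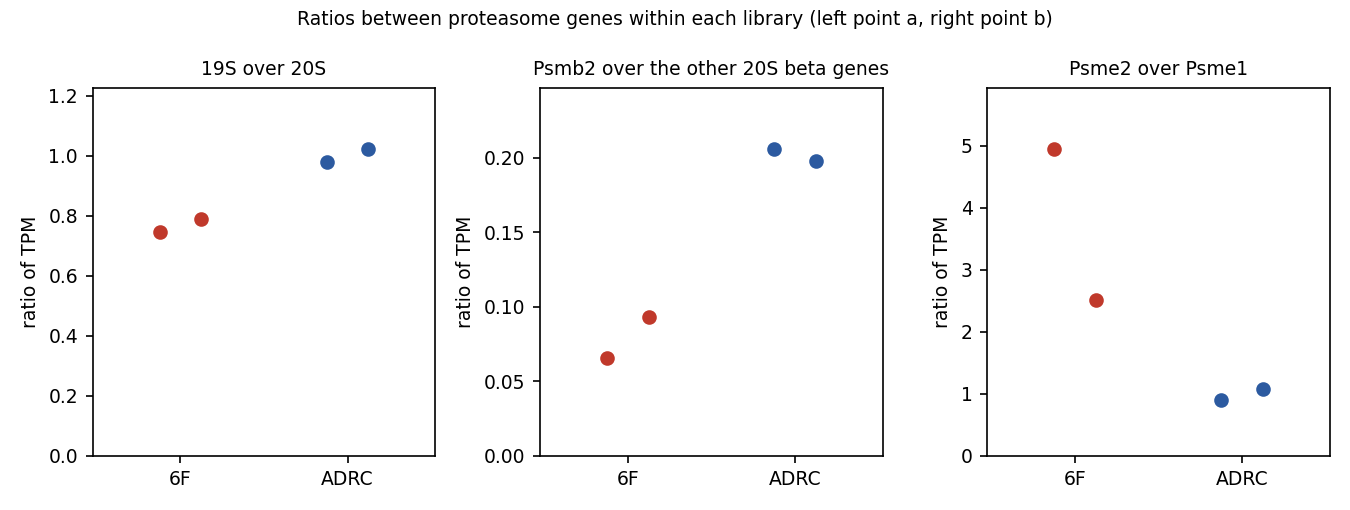
Ratios of TPM (vertical axes, from 0) within each library for summed 19S over summed 20S genes, Psmb2 over the other 20S beta genes and Psme2 over Psme1, with the 2 6F libraries left (red) and the 2 ADRC libraries right (blue). The first ratio is 0.745 and 0.790 in 6F against 0.980 and 1.02 in ADRC libraries, and in all 3 the groups do not overlap.

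The 6F libraries differed from each other in these genes. In 40 of the 43 tested proteasome genes, or 93.0%, CPM was higher in 6F library a than in b, where 49.9% of all tested genes were. The median log2 difference of a over b was 0.32 among the proteasome genes. This was not particular to them. Of the comparison complexes described below, 9 of 10 COP9 signalosome genes and 7 of 8 CCT genes were higher in library a. For eIF3 it was 8 of 14. Library a was also the 6F library with the lower macrophage markers given above, and its column name carries a different lane tag from the other 3 libraries, whose part in this was not tested. Within the lane tag that 6F library b shares with both ADRC libraries, which is the fit without 6F library a, 30 proteasome genes were lower and 1 was higher, while 32.8% of 12081 genes were called lower and 35.0% higher. Without 6F library b, 20 were lower and 5 higher, against 34.0% and 36.8% of all genes tested in that fit. Without ADRC library a the counts were 4 lower and 0 higher, and without ADRC library b 3 and 0, with 8.74% and 8.47% of all genes then called lower and 9.13% and 8.87% higher. Each of these fits has 1 library in an arm, which is assumed to vary like the pair in the other arm, so its adjusted p rests on that pair alone. With that limit Psmb2, Psmd3 and Psmd7 remained called in all 4, and all 18 called genes kept their direction.

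Scaling mattered for the count of falls as well. With libraries scaled by their size alone, 11 proteasome genes were called lower and 1 higher, where 16.9% of all tested genes were lower and 31.2% higher. With offsets for exon length and GC content, an alternative added after seeing the data, 24 were lower and 1 was higher, while 29.6% of all genes were lower and 19.4% higher. In the authors' deposited table, whose comparison is named EDGE in the headers, 0 of the 45 proteasome genes had a false discovery rate under 0.05, and 3 had an unadjusted p-value under 0.05. These were Psmd7, Psmb2 and Psmc3, with signed fold changes of -2.36, -2.45 and -1.94 in the authors' deposited table, and the sources used here do not give the values behind them. The kit is not named as one that marks strand, so reads of genes that overlap on the other strand cannot be told apart; these include Slc39a13 at Psmc3, Htr2b at Psmd1, Cutal at Psmd5, AY074887 at Psma4 and Nek6 at Psmb7.

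The promoters of the proteasome genes were searched for short motifs, whichever way the genes moved. Whether any motif goes with the change in 6F cells was not tested. RefSeq windows of 250 bases before to 50 after the start site (build GRCm38.p6) were matched for 37 of the 45 genes, 40 windows in all. The core of the antioxidant response element bound by Nfe2l1 and Nfe2l2 with small Maf proteins, TGACNNNGC on either strand, was in 6 of the 40 windows (15%), against 12.4% of all 32851 windows. These were windows of Psmb5, Psmb6, Psmc6, Psmd9, Psmd12 and Psme4, of which Psmd12 was called lower and the other 5 were not called. The ETS core CCGGAAG was in 15 of the 40 (37.5%) against 8.86% of all windows, and the GC box GGGCGG in 23 (57.5%) against 35.7%. CCAAT was in 13 of the 40 (32.5%) against 37.4% of all windows. All were searched on both strands, matches may overlap each other, and a match describes letters, not binding. Psmb1, Psmb2, Psmb7, Psmc3, Psmd3, Psmd7, Psmg2 and Psma8 were not matched, so the genes with the largest falls, Psmb2 and Psmd7, have no window here.

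The windows of 4 genes are shown 5′ to 3′ on the strand of the gene, for a lid gene that fell (Psmd11, chr11:80428365-80428664, plus strand), for a pair of proteolytic genes that were not called and hold the antioxidant core close to the start site (Psmb5, chr14:54617946-54618245, minus strand, and Psmb6, chr11:70525107-70525406, plus strand), and for the gene that rose (Psme2, chr14:55591052-55591351, minus strand, the upstream one of its windows). Capitals mark the antioxidant core, the GC box and the ETS core on either strand.
Psmd11: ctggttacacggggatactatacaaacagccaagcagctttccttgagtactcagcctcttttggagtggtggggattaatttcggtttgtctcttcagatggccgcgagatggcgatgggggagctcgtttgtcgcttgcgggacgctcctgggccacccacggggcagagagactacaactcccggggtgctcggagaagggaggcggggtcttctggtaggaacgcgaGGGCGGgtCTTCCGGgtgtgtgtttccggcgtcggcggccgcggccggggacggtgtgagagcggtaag
Psmb5: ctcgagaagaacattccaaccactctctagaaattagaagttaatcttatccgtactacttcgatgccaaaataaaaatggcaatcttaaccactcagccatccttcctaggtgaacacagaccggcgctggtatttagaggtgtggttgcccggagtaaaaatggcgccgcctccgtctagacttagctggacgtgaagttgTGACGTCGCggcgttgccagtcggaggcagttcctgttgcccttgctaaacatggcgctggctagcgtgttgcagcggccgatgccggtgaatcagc
Psmb6: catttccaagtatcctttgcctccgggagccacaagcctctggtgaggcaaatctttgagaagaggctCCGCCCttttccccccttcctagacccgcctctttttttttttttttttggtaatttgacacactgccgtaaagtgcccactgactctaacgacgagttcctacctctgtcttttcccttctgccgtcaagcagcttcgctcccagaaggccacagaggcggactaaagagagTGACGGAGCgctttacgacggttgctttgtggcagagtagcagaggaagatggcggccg
Psme2: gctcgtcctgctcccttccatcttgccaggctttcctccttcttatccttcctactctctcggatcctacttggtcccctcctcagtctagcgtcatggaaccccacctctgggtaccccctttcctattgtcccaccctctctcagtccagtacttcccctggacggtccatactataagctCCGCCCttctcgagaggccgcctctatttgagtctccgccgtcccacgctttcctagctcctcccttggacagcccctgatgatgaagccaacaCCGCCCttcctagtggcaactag
In Psmb5 the antioxidant core begins at -47 and in Psmb6 at -9 from the start site, and in Psmd11 a GC box and an ETS core stand next to each other. Psme2 holds GC boxes and neither of the other motifs in this window.

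The genes for subunits and partners that the naming rule leaves out moved in both directions. Of 10 tested, 4 were lower and 1 was higher in 6F cells, where 22.8% of all tested genes were lower and 24.2% higher. The deubiquitinases of the cap went apart: Usp14, which trims ubiquitin chains and slows degradation, was higher at 195 ± 39.9 CPM in 6F and 104 ± 7.47 CPM in ADRC cells (SD, n = 2 each; log2 fold change 0.90, adjusted p = 0.0103), whereas Uchl5 was lower (-1.09, adjusted p = 0.0122). Txnl1, a thioredoxin-like protein that binds the cap, and Akirin2, which carries proteasomes into the nucleus, were lower by log2 fold changes of -0.74 and -0.69 (adjusted p = 0.0177 and 0.0213). AI314180 (-0.25) and the ligase Ube3c (-0.09) were not called. Of the 3 immunoproteasome genes, whose products replace the proteolytic subunits in immune cells, Psmb8 was lower at 27 and 34 reads in the 6F libraries and 29 and 32 in the shallower ADRC libraries (log2 fold change -1.78, adjusted p = 0.00884). Psmb9 had 22 and 19 reads in the 6F libraries and 1 and 1 in the ADRC libraries, a pooled ratio of 5.92 with an exact 95% counting interval of 1.54 to 50.6; it had enough reads to be tested in 6F cells only, so no test is given. Psmb10 was not called (-0.84, adjusted p = 0.0660).

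Among 9 genes known to control proteasome gene transcription, 2 were higher and 2 were lower. These counts were near the shares over all tested genes, 24.2% higher and 22.8% lower. Nfe2l1 itself had 397 ± 52.9 CPM in 6F and 362 ± 16.7 CPM in ADRC cells (SD, n = 2 each), and its groups overlapped (log2 fold change 0.13, adjusted p = 0.527). Of the genes that process the Nfe2l1 protein, Ngly1 was 2.19-fold higher (adjusted p = 0.0247) and Ddi2 was not called (-0.17, adjusted p = 0.418). Mafk, a small Maf partner, was higher (0.91, adjusted p = 0.00860), and Nfe2l2 and Syvn1, a ligase that degrades Nfe2l1 protein, were lower (-0.64 and -0.74, adjusted p = 0.0146 and 0.0169). Upstream of the proteasome, the ubiquitin-activating enzyme Uba1 was lower (-0.48, adjusted p = 0.0346), and the polyubiquitin gene Ubb was not called (0.43).

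Of 11 genes for the unfoldase VCP, its cofactors and shuttle factors that bring substrates to the cap, 5 were lower and 0 were higher. That is 45.5% lower, against 22.8% of all tested genes. Rad23b fell by 1.41 on the log2 scale, the VCP cofactor Nsfl1c by 1.01, and the shuttles Ubqln4 and Ubqln2 by 0.99 and 0.75 (adjusted p = 0.00154, 0.00510, 0.00399 and 0.00921). Vcp (-0.30) and its cofactor Nploc4 (-0.25) were not called. Among muscle ubiquitin ligases and their relatives, Fbxo30, Fbxo32 and Mdm2 were higher by log2 fold changes of 2.01, 1.28 and 0.46 (adjusted p = 0.00137, 0.0158 and 0.0478). The call of Mdm2 was lost in 4 alternatives that kept all libraries, with adjusted p between 0.0567 and 0.106 and nearly the same fold. Asb2, a ligase of striated and smooth muscle, had 1233 and 588 reads in the 6F libraries and 2 and 4 in the ADRC libraries; like Psmb9 it had enough reads to be tested in 6F cells only, and no test is given. Stub1, a chaperone-linked ligase, was not called (-0.54). Trim63, an atrophy ligase of skeletal muscle, had 3 and 4 reads in the 6F libraries and 1 and 0 in the ADRC libraries and was not tested, and Trim54 had 0 reads in all 4 libraries.

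The proteasome was set beside 3 other complexes, where 22.8% of all tested genes were lower and 24.2% higher. The COP9 signalosome, built on the same plan as the 19S lid, had 1 of 10 genes lower and 0 higher, with a median log2 fold change of -0.08, from Gps1 at -0.77 to Cops9 at 0.75. The translation factor eIF3, which shares subunit domains with the lid, had 9 of 14 lower and 0 higher, with a median of -0.92, from Eif3c at -1.46 to Eif3k at 0.11. The chaperonin CCT, which folds actin and tubulin, had 7 of 8 lower and 0 higher, with a median of -0.95, from Cct5 at -1.42 to Cct7 at 0.05. The 19S median of -0.76 thus lay between that of the COP9 signalosome and those of eIF3 and CCT, and no test of a difference between complexes was made.

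**Figure D4:**
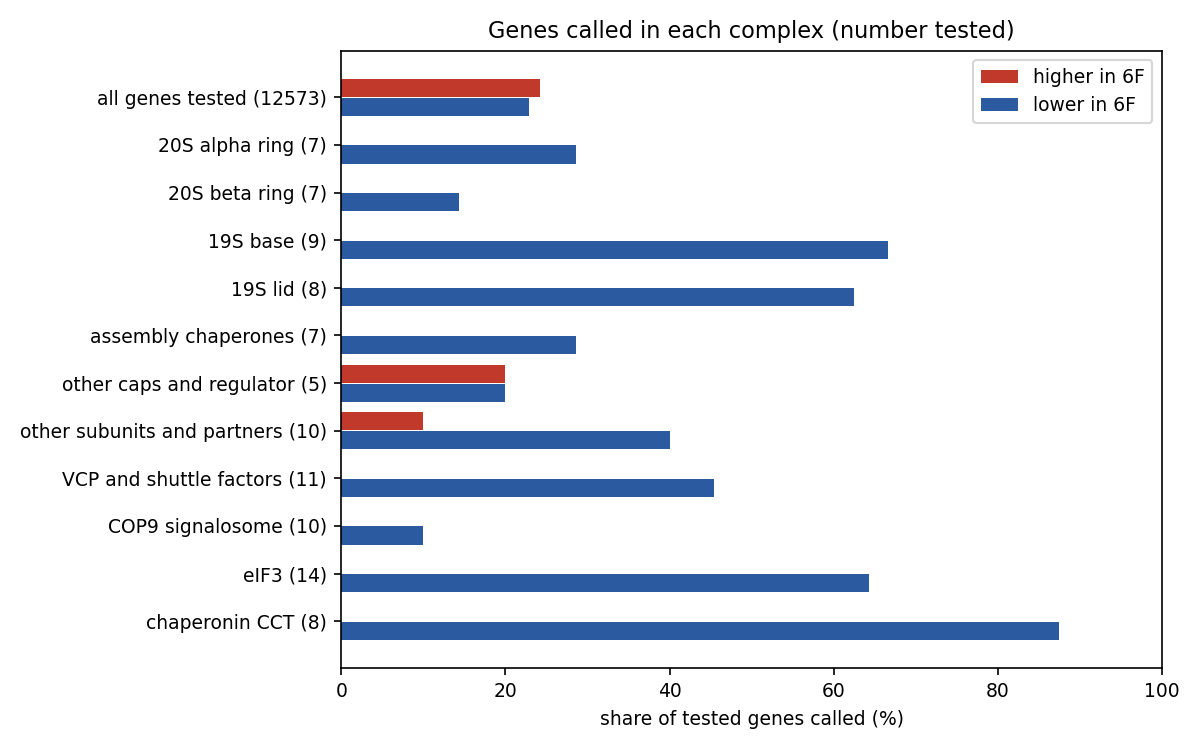
Share of tested genes (horizontal axis, %) called higher (red) and lower (blue) in 6F cells over ADRCs, for all genes and for each proteasome role, related list and comparison complex (number tested in brackets). Over all genes 22.8% were lower; the 19S base and lid had 6 of 9 and 5 of 8 lower, the beta ring 1 of 7 and CCT 7 of 8.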

How the data were processed

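RNA of 4 libraries was depleted of ribosomal RNA before library preparation, per the labels' protocols. The authors deposited 1 table whose total exon reads per gene and library are counts and were used as deposited. It also holds the authors' comparison, per the file headers a signed fold change (a score here, as it cannot lie between -1 and 1), a p-value and its FDR correction. Per the submitters' processing notes the genome was GRCm38, with aligner and counter not given in the sources used here. Column names gave the group and no replicate number, so libraries are called a and b without order, and 52 further per-library columns were not used.

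The proteasome genes and all lists were chosen with earlier results of these data known. All members may be named; from each related list up to 4 called genes by size of change and up to 2 not called with the highest CPM, from comparison complexes the extremes; 1 related list is not reported here as a whole. Positions are from GENCODE M21 on GRCm38.

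Counts were tested with edgeR 4.0.16 (filterByExpr, TMM, quasi-likelihood, Benjamini-Hochberg over 12573 genes, threshold 0.05) in R 4.3.3. The SE is the log2 fold change divided by the square root of F. TPM were computed from total exon reads and exon length. Permutation tests used scipy 1.17.1. Intervals and floors cover counting error only. Exon reads ranged between 2273897 and 7593772 per library. On simulated counts, the edgeR procedure recovered 2 of 50 genes changed 1.5-fold, 23 of 50 at 2-fold, 50 of 50 at 4-fold and 50 of 50 at 8-fold. It called 6 of 11263 unchanged genes. The simulation gave every gene the same dispersion, changed few and only well-read genes, and held no shared difference between libraries of a group. The data differ in these points, so the rates do not measure power or error in this comparison.

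Alternatives were DESeq2 1.42.0 size factors and Wald test, library-size scaling, testing without a count filter or with a mean of 1 CPM as the minimum, a 2-fold minimum, leaving out each library, removing the genes that collect ribosomal reads (Lars2, Gm26917, Rn18s-rs5), and thinning of the 6F libraries, each to 2468012 reads. Loess offsets (span 0.3) on exon length and GC content were added after seeing the data.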

Additional observations from a re-analysis of the deposited data

How the results depend on the processing

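The 18 called proteasome genes kept their direction under all 12 alternative fits, and Psmb2, Psmd3 and Psmd7 also kept their call in all 12. The count of lower genes was 17 as reported, 11 with library-size scaling and 5 with a 2-fold minimum, and ranged from 3 to 30 when 1 library was left out; the count of higher genes ranged from 0 to 5. Over all genes the 2-fold minimum left 1815 lower, and leaving out 1 library gave 1220 to 4454 higher and 1165 to 4118 lower genes. The other alternatives left the count of lower proteasome genes within 1.5 times 17, from 15 with the DESeq2 Wald test to 24 with loess offsets. With all libraries kept, library-size scaling lost the calls of Psma7, Psmc2, Psmd4, Psmd12, Psme3 and Psmg1. The DESeq2 Wald test lost those of Psma7 and Psmg1, and testing without a count filter lost that of Psma7. The difference in the 19S over 20S ratio ran from -0.26 to -0.21 when 1 library was left out. No paired analysis was possible because the column names carry no replicate numbers. A fit on uniquely mapped reads was foreseen and not run, since its columns name a group and no sample, and together with the total reads each group would have more columns than samples.

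Class medians moved as follows. The alpha ring median, -0.30 as reported, was -0.57 with loess offsets, -0.0714 with library-size scaling and -0.12 without 6F library b. The beta ring median, -0.12 as reported, was 0.12 with library-size scaling, and ran from -0.37 to 0.12 when 1 library was left out, so its direction is not settled. Library-size scaling also turned the medians of the partner list to 0.0606 and of the COP9 signalosome to 0.15. Of the 20 called genes that the text names from other lists, all kept their direction and 4 kept their call in every alternative fit. The calls of 9 were lost when an ADRC library was left out and in no other fit, and those of 7 in other fits too: Akirin2, Mdm2, Nfe2l2, Syvn1, Txnl1, Uba1 and Usp14.

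Genes that were not called changed sign as follows. With library-size scaling the log2 fold changes were 0.0172 for Psma1, 0.12 for Psmb1, 0.15 for Psmb6, 0.10 for Psmb7, 0.14 for Psmc6, 0.0060 for Psmd10, 0.0489 for Psme4, 0.0616 for Ddi2 and 0.14 for Ube3c. With loess offsets they were -0.20 for Psma3, -0.12 for Psmd6, -0.0952 for Psmd8, -0.13 for Cct7, -0.0802 for Eif3k and -0.0957 for Nfe2l1. With thinned reads it was -0.0410 for Psmg4. When 1 library was left out the range was -0.0668 to 0.13 for Psma3, -0.43 to 0.16 for Psmb1, -0.0560 to 0.48 for Psmb5, -0.28 to 0.12 for Psmb6, -0.37 to 0.11 for Psmb7, -0.32 to 0.11 for Psmc6, -0.67 to 0.0250 for Psmd13, -0.14 to 0.34 for Psmd6, -0.16 to 0.30 for Psmd8, -0.19 to 0.35 for Psmg4, -0.42 to 0.43 for Cct7, -0.0912 to 0.31 for Eif3k and -0.25 to 0.0987 for Ube3c. The cause of these changes was not tested. Depth in the ADRC libraries limits the estimates for the chaperone genes, which had down to 13 reads there.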
